A study of Mus musculus with 6 samples.

Results

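Target genes of the transcription factor p53 were followed in primary and metastatic tumours of mice carrying ID8-VEGF cells. The genes were taken from a list of 10 symbols, p53 itself and 9 genes it is known to switch on: Trp53, Cdkn1a, Mdm2, Ccng1, Bax, Bbc3, Phlda3, Eda2r, Sesn2 and Zmat3. A gene was used where a probe set carried its symbol and no other, and 8 of the 10 were found in this way among 30142 genes, with 1 probe set each. Trp53, which encodes p53 itself, and Bax, which encodes a pore-forming death protein, were not analysed here, so all 8 genes described are targets of p53.

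ID8 is a mouse ovarian surface epithelial line, and ID8-VEGF is a derivative of it that makes vascular endothelial growth factor. The cells were placed under the bursa of the ovary, and late tumours were taken from 3 mice named C1M3, C1M5 and C2M3. A primary and a metastatic tumour of every animal were hybridised, 1 array each, which made 3 arrays per group. Both groups share the cell line and the route of injection. Strain, age, the site of each metastasis and any treatment are not in the labels. For the primary tumour of C2M3, 1 of the labels names a mouse C2M2, and the donor label was followed.

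In cells under stress, p53 is released from its inhibitor and binds DNA as a tetramer at pairs of a short half-site. Its targets halt the cell cycle, repair DNA, adjust metabolism or start cell death, and some of them, Mdm2 above all, shut p53 down again. Levels of the target genes are often read as a sign of p53 activity, although many of them also answer to other factors.

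Values are log2 intensities per probe set, and a difference of 1 on this scale is a doubling. Over all genes tested the array medians lay between 4.90 and 5.15. On the 5222 probe sets that the array names as negative controls, the median lay between 4.63 and 4.90 and the 95th percentile between 8.04 and 8.79. Cdkn1a, Ccng1 and Phlda3 lay above that 95th percentile on all 6 arrays. Mdm2, Sesn2, Eda2r, Bbc3 and Zmat3 lay below it on all 6, and Zmat3 was above the control median on only 4 arrays, so small differences in these 5 genes have little signal behind them. Mdm2, Sesn2, Eda2r and Bbc3 were above the control median on all 6. Of the markers of ovarian surface epithelium, all 10 were measured. The brightest were Krt19, between 13.41 and 16.65, and Upk3b, between 14.48 and 16.06 on the 6 arrays. Others were dim: Krt7, between 5.59 and 7.58, and Cdh1, between 4.73 and 6.69, lay below the control 95th percentile on all 6.

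For no p53 target was a difference between metastatic and primary tumours called by the test. With limma, 0 of the 8 genes had a Benjamini-Hochberg adjusted p under 0.05, where 0% of all 30142 genes did. At an unadjusted p under 0.05 there were also 0 of 8, where 4.21% of all genes were, 2.88% higher and 1.33% lower in metastatic tumours. The mean was higher in metastatic tumours for 4 of the 8 and lower for the other 4, and the median difference was -0.01, against 0.02 over all genes. In none of the 8 were the groups apart, where 7.63% of all genes had groups that did not overlap, 4.79% higher and 2.84% lower. Centring each array on its median moved every difference by -0.11, which left 2 of the 8 means higher and 6 lower. The median over all genes then became -0.09. The share of all genes with a higher or a lower mean was not counted, here or for the lists below. The widest mean differences were those of Cdkn1a, lower in metastatic tumours, and Ccng1, higher in metastatic tumours.

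The promoters of Cdkn1a, Mdm2 and Ccng1 are shown because theirs were the only windows among the measured p53 targets that held the p53 half-site consensus. RefSeq windows of 300 bases on GRCm38.p6, from 250 bases before to 50 after an annotated start, were held for 7 of the 8 genes, 10 windows in all, and Zmat3 was not matched. The p53 half-site, 10 bases long and its own reverse complement, so that both strands are read at once, was searched without mismatch. It was found in 8.36% of 32851 windows. The 250 bases before the start are printed below from 5′ to 3′ on the strand of the gene, with the half-sites in capitals.
Cdkn1a: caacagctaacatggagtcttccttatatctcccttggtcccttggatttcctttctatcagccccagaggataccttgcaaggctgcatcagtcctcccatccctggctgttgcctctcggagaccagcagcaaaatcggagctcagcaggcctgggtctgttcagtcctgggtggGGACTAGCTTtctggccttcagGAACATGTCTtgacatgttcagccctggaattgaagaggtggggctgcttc
Mdm2: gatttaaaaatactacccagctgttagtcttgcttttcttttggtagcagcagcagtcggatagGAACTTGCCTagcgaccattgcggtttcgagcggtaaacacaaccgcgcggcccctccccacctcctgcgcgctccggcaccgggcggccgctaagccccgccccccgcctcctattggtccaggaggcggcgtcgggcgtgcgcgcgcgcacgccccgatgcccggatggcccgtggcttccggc
Ccng1: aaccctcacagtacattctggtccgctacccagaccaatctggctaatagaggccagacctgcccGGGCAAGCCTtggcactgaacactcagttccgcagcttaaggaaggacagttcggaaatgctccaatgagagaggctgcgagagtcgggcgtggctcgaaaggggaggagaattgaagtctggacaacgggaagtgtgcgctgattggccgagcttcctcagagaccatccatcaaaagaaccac
The Cdkn1a stretch is chr17:29090729-29090978 on the plus strand, before the more upstream of the 2 starts held for this gene. Its half-sites begin 73 and 51 bases before the start. A pair of half-sites at most 13 bases apart, as here, was held by 0.0731% of all windows. The 10 bases directly after the half-site nearer the start miss the consensus only at their first letter. The exact search therefore left them in lower case. The window of the other Cdkn1a start held none. The Mdm2 stretch is chr10:117710759-117711008 on the minus strand, with the half-site beginning 186 bases before the start, and the Ccng1 stretch is chr11:40755287-40755536 on the minus strand, with the half-site beginning 185 bases before it. Windows of Bbc3, Phlda3, Eda2r and Sesn2 held no exact match, which says only that these letters are not in those windows, and a match is not a measured binding site.

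Cdkn1a (Entrez 12575) encodes p21, the inhibitor of cyclin-dependent kinases through which p53 halts the cell cycle. Its log2 intensity was 12.36, 12.87 and 10.96 in the primary tumours of C1M3, C1M5 and C2M3. In their metastatic tumours it was 11.53, 12.97 and 9.72. Both tumours of C1M5 were the highest and both tumours of C2M3 the lowest, and the groups overlapped. Primary tumours averaged 12.06 ± 0.99 (SD, n = 3) and metastatic tumours 11.40 ± 1.63 (SD, n = 3), a difference of -0.66 (SE 0.99, limma adjusted p = 0.877). Its 95% interval ran from -3.19 to 1.88, and with the mouse as a block, where the SE was 0.32, from -1.68 to 0.37 (limma adjusted p = 0.841). Within the mice the metastatic tumour differed from the primary by -0.83, 0.10 and -1.24 in the same order. Without only the metastatic tumour of C2M3 the mean difference was 0.19, and without both tumours of C2M3 it was -0.37.

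Ccng1 (Entrez 12450) encodes cyclin G1, a direct p53 target that feeds back on p53 through Mdm2. It stood at 10.99, 12.28 and 11.77 in the primary tumours of C1M3, C1M5 and C2M3 and at 11.81, 12.75 and 12.23 in the metastatic tumours. Of the 8 genes, Ccng1 alone was higher in the metastasis than in the primary tumour of all 3 mice, with steps of 0.82, 0.47 and 0.46. Over all genes 11.1% were higher in all 3 mice and 19.7% had the same sign in all 3, so 1 in 8 is near the background. The mean difference was 0.58 (SE 0.42, limma adjusted p = 0.842), with a 95% interval from -0.49 to 1.66, and the groups overlapped. With the mouse as a block the SE was 0.11 and the unadjusted p 0.0119, but the limma adjusted p was 0.841. At that unadjusted threshold the block picked 1 of the 8, as higher, where it picked 4.93% of all genes, 2.96% higher and 1.97% lower. With the block and arrays centred, the unadjusted p of Ccng1 was 0.0616, and the 1 gene picked was Cdkn1a, lower, at 0.0496. The difference was 0.46 without both tumours of C1M3. It was 0.24 without only the primary tumour of C1M3, a fit that keeps the metastasis of that mouse unpaired.

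That primary tumour, the array with the lowest Ccng1, was also low in macrophage and fibroblast markers. It had the lowest value of all arrays for 11 of 11 measured macrophage genes and 8 of 8 fibroblast genes. The share of all genes that were lowest on this array was not counted. Its array weight in limma, which is lower where an array strays further from its group, was 0.26, against 0.73 to 2.28 on the others. The mean of the macrophage list was 6.16 there, against 8.01 and 8.38 in the other primary tumours and 7.63 to 8.48 in the metastatic ones. The fibroblast list stood at 6.97, against 8.66 and 9.71 in the other primary tumours and 7.99 to 9.17 in the metastatic ones. The part of these host cells in the Ccng1 difference was not tested. In whole tumours, fewer cells of a type and less RNA per cell cannot be told apart.

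**Figure D1:**
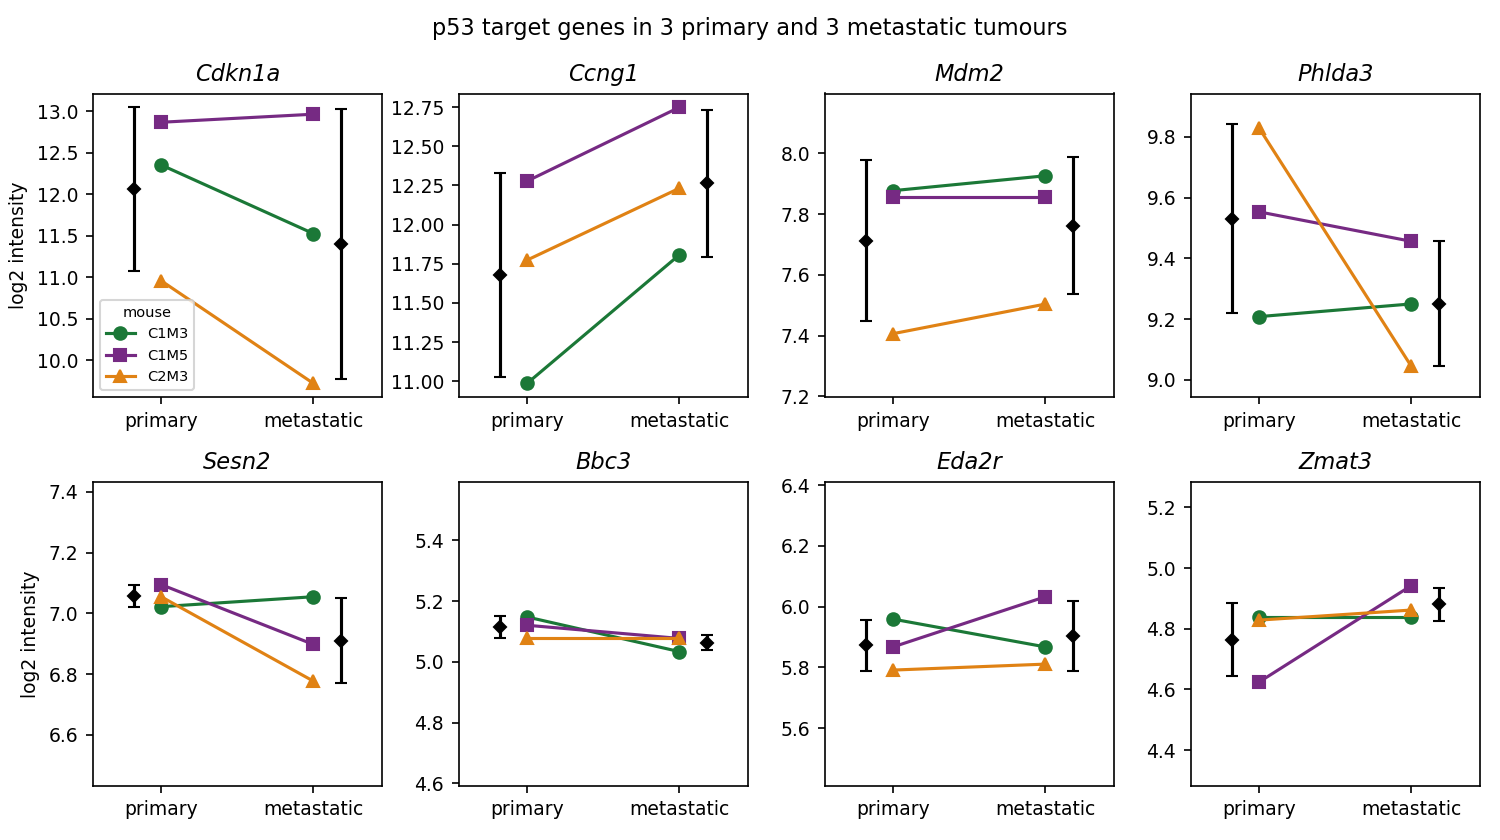
Log2 intensity of each of the 8 p53 targets (y axis, a separate range in each panel that spans at least 1 log2 unit) in primary and metastatic tumours, with a line joining the 2 tumours of a mouse and black diamonds with bars for the mean and SD of 3 arrays. The 3 lines of Ccng1 all climb to the right, by 0.46 to 0.82, while those of Mdm2 are nearly flat, with C2M3 below the other mice.

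Mdm2 (Entrez 17246) encodes the ubiquitin ligase that tags p53 for destruction, and is itself induced by p53. Its level was 7.88, 7.86 and 7.41 in the primary tumours of C1M3, C1M5 and C2M3 and 7.93, 7.86 and 7.50 in the metastatic tumours. The 2 tumours of each mouse had nearly the same level, and both tumours of C2M3 were the lowest. The mean difference was 0.05 (SE 0.18, limma adjusted p = 0.962), with a 95% interval from -0.42 to 0.52, and it was -0.06 with each array centred on its median. All 6 values lay below the 95th percentile of the negative controls.

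Phlda3 (Entrez 27280) encodes a small lipid-binding protein that holds back Akt signalling. In the primary tumours of C1M3, C1M5 and C2M3 it was measured at 9.21, 9.55 and 9.83, and in their metastatic tumours at 9.25, 9.46 and 9.04. Most of the mean difference of -0.28 (SE 0.20, limma adjusted p = 0.842) came from C2M3, where the metastatic tumour was lower by 0.78, against a difference of 0.04 in C1M3 and -0.10 in C1M5. Leaving out both tumours of C2M3 brought it to -0.03.

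Sesn2 (Entrez 230784) encodes sestrin 2, which restrains growth signalling through mTORC1 and is also induced by Atf4 under nutrient stress. Primary tumours had nearly equal values of 7.02, 7.09 and 7.05 for C1M3, C1M5 and C2M3, and metastatic tumours had 7.05, 6.90 and 6.78. The difference of -0.15 (SE 0.08) had the smallest unadjusted p of the 8 genes, 0.133, and a limma adjusted p of 0.842. In C1M3 the sign was the opposite, with a difference of 0.03.

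The remaining 3 targets moved by very little between arrays. Bbc3 (Entrez 170770), which encodes the BH3-only death protein Puma, ranged from 5.03 to 5.15 over the 6 arrays, a span of 0.11, where the median span over all genes was 0.50. Eda2r (Entrez 245527), a receptor for ectodysplasin A2 and a sensitive p53 target in many tissues, ranged from 5.79 to 6.03. Zmat3 (Entrez 22401), which encodes an RNA-binding protein that alters splicing downstream of p53, ranged from 4.62 to 4.94. Their mean differences were -0.05 (SE 0.04), 0.03 (SE 0.08) and 0.12 (SE 0.08), with limma adjusted p of 0.842 or above. The difference of Eda2r was -0.07 with arrays centred on their medians. These 3 probe sets were dim on every array, so a change in their transcripts may not have been detectable here.

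**Figure D2:**
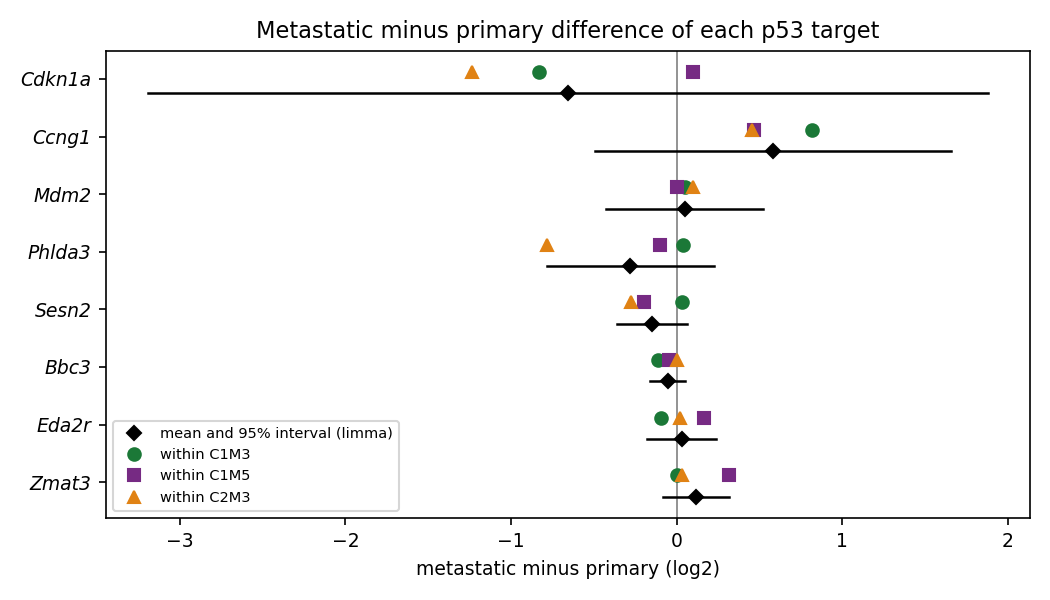
Metastatic minus primary difference in log2 intensity (x axis) for each p53 target, with coloured marks for the 3 mice and black diamonds with lines for the limma mean and its 95% interval. Every interval crosses 0, and that of Cdkn1a, from -3.19 to 1.88, is the widest of the 8.

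For Cdkn1a, Mdm2, Ccng1 and Eda2r the mice held a larger share of the sum of squares than the tissues. Over all genes the mice, 3 against 2 tissues, also held more, with median shares of 39.7% against 18.3%. A limma F test of the 3 mice, with tissue kept as a term and chosen after seeing the data, gave 0 of 8 genes at an adjusted p under 0.05, where 0% of all genes passed. At an unadjusted p under 0.05 it picked Ccng1 (0.00767), Mdm2 (0.0111) and Cdkn1a (0.0160), 3 of the 8, where 6.10% of all genes were picked. Their limma adjusted p values were 0.667, 0.667 and 0.702. The mice held 97.6% of the sum of squares of Mdm2, 85.9% of that of Cdkn1a and 69.3% of that of Ccng1, where the median over all genes was 39.7%. For Phlda3, Sesn2, Zmat3 and Bbc3 the share was between 6.04% and 21%, and for Eda2r it was 57.3%. The count at an unadjusted p under 0.05 depended on single arrays. It was 1 of 8 without the primary or the metastatic tumour of C1M5 or of C2M3, or without mouse C2M3. It was 2 of 8 without either tumour of C1M3, without mouse C1M5, with arrays centred on their medians or without the tissue term. The 3 genes are those whose promoter windows held the half-site, which is a description and not a test. The part of p53 in the differences between mice was not tested.

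The 3 genes did not order the mice in the same way. The mean of the 2 tumours for Cdkn1a was 12.92 in C1M5, 11.94 in C1M3 and 10.34 in C2M3. For Ccng1 it was 12.51 in C1M5 and 11.40 in C1M3, with C2M3 between them. For Mdm2 it was 7.86 in C1M5, 7.90 in C1M3 and 7.46 in C2M3. Both tumours of C1M5 lay above the other 4 for Cdkn1a and Ccng1, 2 of 8 genes, where 5.63% of all genes did so. Both tumours of C2M3 lay below the other 4 for Cdkn1a, Mdm2 and Eda2r, 3 of 8, where 6.91% of all genes did so. Mdm2 was also highest in both tumours of C1M3, 1 of 8, where 6.97% of all genes were. No target was lowest in both tumours of C1M3 or of C1M5, or highest in both of C2M3, where 4.6%, 3.39% and 3.83% of all genes were.

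**Figure D3:**
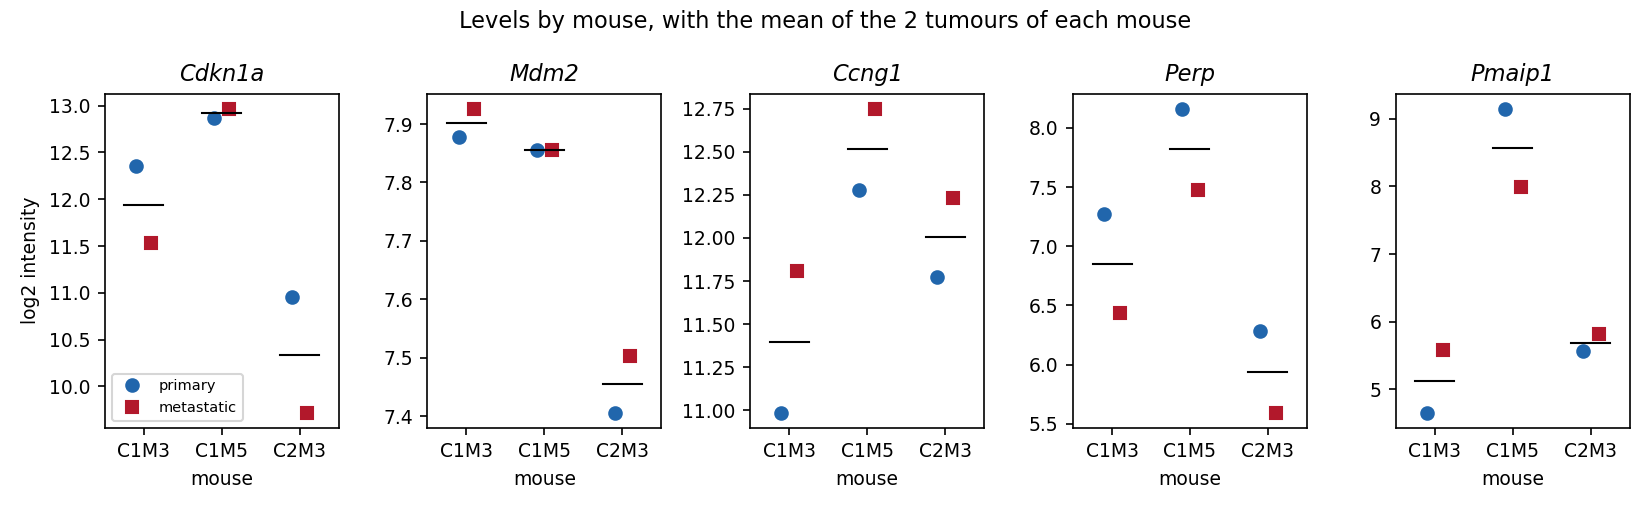
Log2 intensity (y axis, a separate range in each panel) of Cdkn1a, Mdm2, Ccng1, Perp and Pmaip1 by mouse, with circles for primary and squares for metastatic tumours and a bar at the mean of both. Cdkn1a, Ccng1, Perp and Pmaip1 are highest in both tumours of C1M5, and Cdkn1a, Mdm2 and Perp lowest in both tumours of C2M3.

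The ovarian surface markers also differed by mouse. The mean of that list was 11.88 and 11.98 in the primary and metastatic tumours of C1M5, 10.60 and 10.59 in those of C2M3, and 10.15 and 10.08 in those of C1M3. With limma 0 of its 10 genes differed between mice at an adjusted p under 0.05, and 6 of 10 had an unadjusted p under 0.05, where 6.10% of all genes did. The list mean put C1M3 last, as for Ccng1 but not for Cdkn1a. The markers did not all share this order. By the mean of the 2 tumours, Krt8, Krt18 and Wt1 were lowest in C2M3 and the rest in C1M3. The widest gap between mice was that of Upk1b, at 9.04 in C1M3, 12.81 in C2M3 and 14.33 in C1M5. The part of these cells in the levels of the p53 targets was not tested.

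Genes that act on p53 gave no call by tissue either. Of 25 listed family members and regulators, 23 were measured, with 0 past the limma threshold, 0 at an unadjusted p under 0.05 and a median difference of -0.02. Their means were higher in metastatic tumours for 11 and lower for 12, or 3 and 20 with arrays centred. Centring also moved the median over all genes from 0.02 to -0.09, so the count of 20 is not particular to these genes. Groups were apart for 2 of the 23, both higher in metastatic tumours, where 4.79% of all genes were. These were Cop1, a ubiquitin ligase gene that acts on p53, by 0.02 (SE 0.04), and Rpl11, a ribosomal protein gene whose product binds Mdm2, by 0.12 (SE 0.05), both named after their values were seen. Hipk2, a kinase that activates p53, had the widest difference at -0.87 (SE 0.48), from 8.79, 9.72 and 10.08 in the primary tumours of C1M3, C1M5 and C2M3 to 9.17, 8.89 and 7.93 in the metastatic ones. The sign in C1M3 was opposite to that in the other mice. Crebbp, a p53 acetyltransferase gene, differed by -0.44 (SE 0.23), and Ppp1r13b, which encodes the p53 cofactor ASPP1, by -0.27 (SE 0.14), each with a limma adjusted p of 0.842. Mdm4, a p53 inhibitor related to Mdm2, differed by 0.16 (SE 0.10), and Ppm1d, a phosphatase that dampens p53, by -0.14 (SE 0.10). Cdkn2a, whose Arf product blocks Mdm2, lay between 3.63 and 3.90 on all arrays, below the median of the negative controls.

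Among 63 further measured p53 targets, none passed the limma threshold either, and the median difference was -0.06. At an unadjusted p under 0.05, 2 of the 63 were higher in metastatic tumours and 0 lower, near the 2.88% and 1.33% of all genes. With the mouse as a block there were 1 higher, Rrm2b, and 2 lower, Trim8 and Perp, where 2.96% of all genes were higher and 1.97% lower. Rrm2b, the p53-induced subunit of ribonucleotide reductase, had values of 7.17, 7.24 and 7.17 in primary and 7.39, 7.49 and 7.40 in metastatic tumours of C1M3, C1M5 and C2M3. Its groups did not overlap and it was higher in every mouse by 0.22 to 0.25, a difference of 0.23 (SE 0.05, unadjusted p = 0.00621, limma adjusted p = 0.842). Rps27l, a ribosomal protein gene close in sequence to Rps27, so that the array may not fully separate the pair, was at 11.47, 11.42 and 11.18 against 11.58, 11.61 and 11.59, a difference of 0.24 (SE 0.09, unadjusted p = 0.0432). The groups of Rps27l were also apart, and it too was higher in every mouse. Of the 63, groups were apart for 2 higher and 2 lower, where 4.79% and 2.84% of all genes were. Higher in all 3 mice were 5 of the 63, where 11.1% of all genes were. Rrm2b was named after its values were seen.

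Rrm2b and Rps27l stand in the list of 11 measured repair targets, of which 6 averaged higher and 5 lower in metastases, with a median of 0.03. With arrays centred it was 4 higher and 7 lower. Without this pair, 4 averaged higher and 5 lower, with a median of -0.06. Mgmt, which removes alkyl groups from guanine, differed by 0.36 (SE 0.24) and was higher in all 3 mice, with a low value of 6.46 in the primary tumour of C2M3. Pcna, the sliding clamp of DNA polymerases, differed by -0.34 (SE 0.53), and its highest value was 13.92 in the primary tumour of C1M3.

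Of 15 targets that halt the cycle or feed back on p53, 10 averaged lower in metastatic than in primary tumours, and the median difference was -0.17. The stress-induced Gadd45b differed by -0.63 (SE 0.69), the kinase gene Plk2 by -0.41 (SE 0.65) and the ubiquitin ligase gene Trim8 by -0.41 (SE 0.17), each with a limma adjusted p of 0.842 or above. Trim8 was lower in every mouse and its groups were apart, at 10.57, 11.11 and 10.65 against 10.30, 10.53 and 10.26, where 2.84% of all genes were apart in this direction. Gadd45a, a further growth arrest gene, ranged from 8.87 in the metastatic tumour of C1M5 to 10.29 in the primary tumour of C1M3, with a difference of -0.35 (SE 0.36).

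Of 16 measured targets in cell death, 10 averaged higher and 6 lower in metastases, and their median was 0.02. With arrays centred on their medians it was 5 higher and 11 lower. Perp, a membrane protein of desmosomes induced by p53 in apoptosis, differed by -0.84 between the tumours of C1M3, by -0.68 in C1M5 and by -0.69 in C2M3, lower in all 3 metastases. The primary tumours read 7.27, 8.16 and 6.28 and the metastases 6.43, 7.48 and 5.59 in that order, which gave a difference of -0.74 with an SE of 0.69 without the block and 0.06 with it. The limma adjusted p was 0.842 without the block and 0.841 with it, where the unadjusted p was 0.00131. Over all genes 8.64% were lower in every mouse. Perp therefore carried both a difference by mouse, with C1M5 highest and C2M3 lowest, and a near-constant step between the tumours of a mouse.

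Pmaip1, which encodes the BH3-only protein Noxa, showed the widest spread by mouse among the targets described. Its primary tumours had 4.66, 9.15 and 5.56 and its metastatic tumours 5.58, 7.99 and 5.82 in C1M3, C1M5 and C2M3. Both tumours of C1M5 stood far above the other 4, the difference between tissues was 0.01 (SE 1.41), and the F test between mice gave an unadjusted p of 0.0203 (limma adjusted p = 0.728). The death receptor gene Fas differed by 0.59 (SE 1.18), with values from 5.01 to 8.50 and no order by mouse or tissue. Tnfrsf10b, the TRAIL receptor gene, differed by -0.42 (SE 0.26), with its lowest value, 4.80, in the metastatic tumour of C2M3.

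Both tumours of C1M5 were the highest for 11 of the 63 further targets, where 5.63% of all genes had that pattern, and the lowest for 2, where 3.39% did. Apart from Perp, Plk2 and Pmaip1, these 11 were Aen, Bak1, Ephx1, Polk, Prkab2, Sfn, Tnfrsf1b and Ulk2, named after their values were seen. At an unadjusted p under 0.05 between mice there were 4 of 63, Perp, Pmaip1, Gtse1 and Sfn, near the 6.10% of all genes. Both tumours of C2M3 were the lowest for 6 of 63, where 6.91% of all genes were, and the highest for 4, where 3.83% were. Those of C1M3 were the highest for 6 and the lowest for 6, where 6.97% and 4.6% of all genes were.

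Among targets in metabolism and stress, 15 of 21 averaged lower in metastases, with a median of -0.08. Lpin1, a phosphatidate phosphatase of fat synthesis, had the widest difference of all further targets, -1.22 (SE 0.53, limma adjusted p = 0.842). Its groups were apart, though only just, 1 of the 21, where 2.84% of all genes were apart in this direction. Its values were 7.11, 7.59 and 8.89 in primary and 7.09, 6.23 and 6.60 in metastatic tumours of C1M3, C1M5 and C2M3. Acad11, an acyl-CoA dehydrogenase gene, differed by -0.83 (SE 0.54) and was highest in the same primary tumour of C2M3, at 7.70. The 9 measured adipocyte markers had list means of 5.92, 8.82 and 11.02 in the same primary tumours and 5.76 to 6.14 in metastatic tumours, and their part in these differences was not tested. Thbs1, which encodes the angiogenesis inhibitor thrombospondin 1, differed by 0.57 (SE 0.54), since it was 11.39 in the primary tumour of C1M3 and 13.10 to 13.19 elsewhere.

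**Figure D4:**
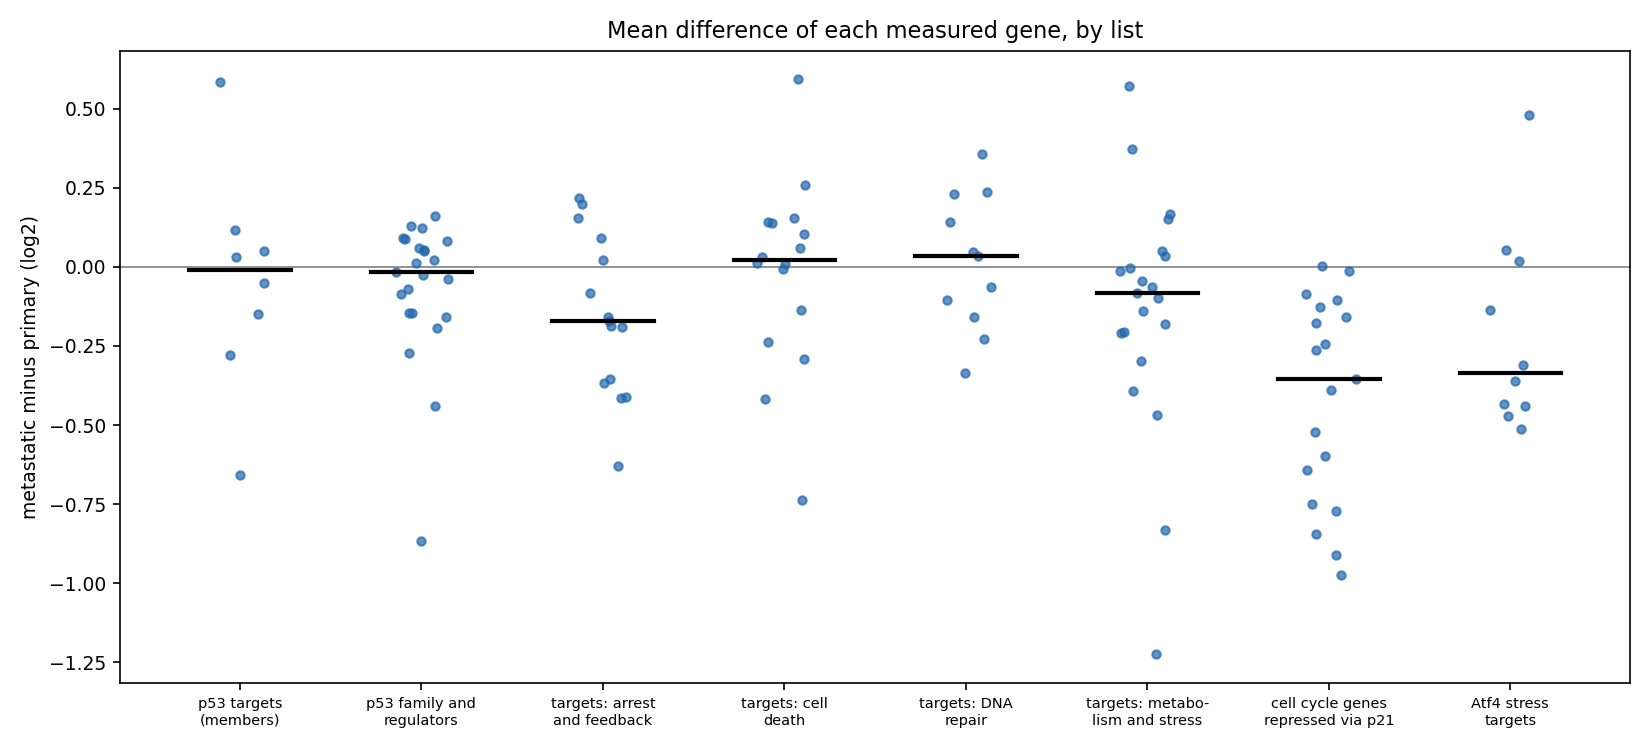
Metastatic minus primary difference in log2 intensity (y axis) of each measured gene, 1 point per gene, in the p53 targets and 7 related lists, with a bar at the median of each list. The medians of the p53 targets, of p53 regulators and of death and repair targets lie between -0.02 and 0.03, and those of the p21-repressed cell cycle genes and Atf4 targets lie at -0.35 and -0.33.

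The cell cycle genes that p21 represses through the DREAM complex stood lower in metastatic tumours by their means for 18 of 19 measured genes, with a median of -0.35, but none passed the limma threshold and 0 had an unadjusted p under 0.05. The mice did not agree in this: the median within C1M3 was -0.74, within C2M3 -0.31 and within C1M5 0.08, where 12 of 19 were higher in the metastasis. Lower in all 3 mice were 2 of 19, near the 8.64% of all genes. The mitotic kinase gene Plk1 differed by -0.97 (SE 0.66), Cdc20 by -0.91 (SE 0.69) and the cyclin gene Ccnb2 by -0.84 (SE 0.68). Of the 19, 17 were highest in the primary tumour of C1M3, the array with the lowest macrophage and fibroblast genes and the lowest array weight. The share of all genes that were highest there was not counted. Both tumours of C2M3 were the lowest for 14 of the 19, where 6.91% of all genes were. In C2M3, Cdkn1a and most genes of this list were at their lowest in the same tumours. In the primary tumour of C1M3, Cdkn1a was at 12.36 while most genes of the list were at their highest. The part of p21 in these levels was not tested. The list mean ran from 6.21 in the metastatic tumour of C2M3 to 7.93 in the primary tumour of C1M3.

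**Figure D5:**
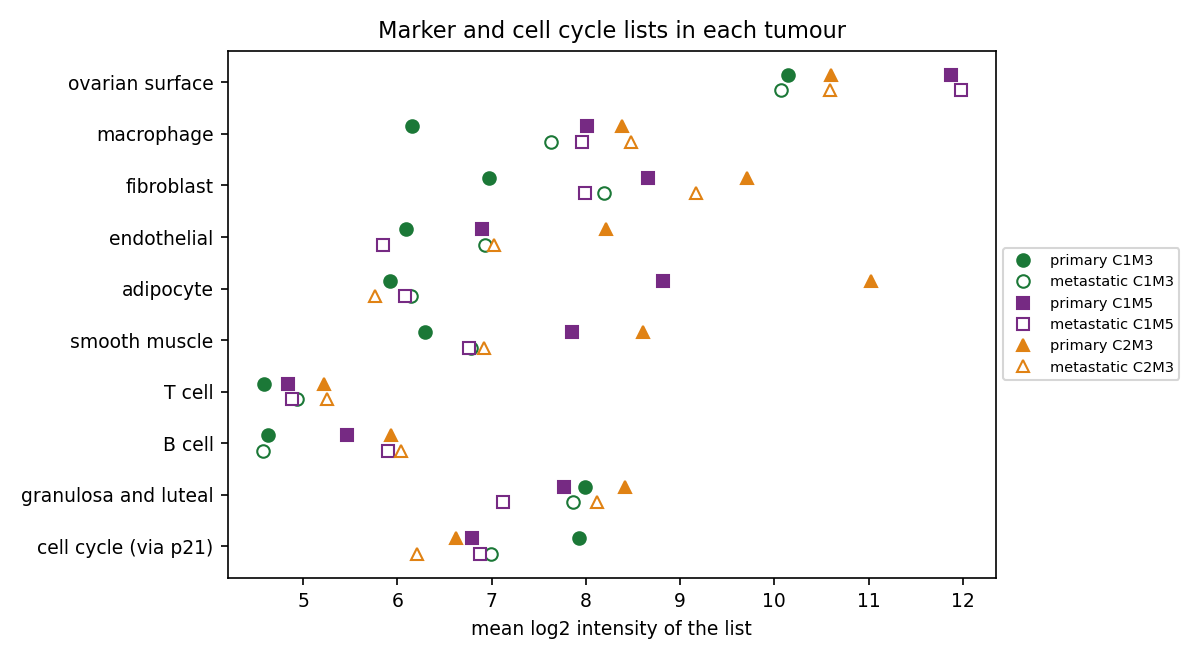
Mean log2 intensity (x axis) of 9 cell type marker lists and of the cell cycle genes repressed via p21, with filled marks for primary and open marks for metastatic tumours and 1 colour and shape per mouse. The ovarian surface list is highest in both tumours of C1M5, and the primary tumour of C1M3 stands lowest for macrophage and fibroblast genes and highest for cell cycle genes.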

How the data were processed

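RNA of 6 tumours was hybridised to whole-transcriptome arrays, 1 array per tumour. The deposited values are log2 intensities per probe set. The submitters' processing notes list RMA, a background correction, quantile normalisation and summary of probes, and Transcriptome Analysis Console, without version or role. The genome build of the array is not given in the sources used here. Groups follow the tissue label and mice the donor label. Of 65956 non-control probe sets, 30604 carried 1 gene symbol, 2146 several and 33206 none. Entrez identifiers updated 827 symbols, and the probe set with the highest mean was kept, for 30142 genes. No value was filtered. Equal values on several arrays occur in the deposited table, so some differences are 0.

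limma 3.58.1 in R 4.3.3 was fitted over all genes with tissue as its only term, two-sided, with empirical Bayes moderation and Benjamini-Hochberg adjustment at 0.05. The mouse as a block was an alternative. The tumours of a mouse pair by the donor label. Their deviations from the group means correlated with r = -0.05, 0.35 and 0.07 in C1M3, C1M5 and C2M3. The highest r with the other tissue of another mouse was 0.13, -0.02 and 0.13 in the same order. Only in C1M5 was the r within the mouse the higher one, so the values themselves show the pairing only there. All 10 list genes were named, and from each related list the 3 widest differences, with Cdkn2a, Mdm4, Ppm1d, Gdf15, Perp, Gadd45a and Pmaip1 in every case where measured. Gdf15 was not analysed here. The planned median over 9 targets covers the 8 that were measured. The genes and lists were chosen with earlier results of these data known. The arrays of a group come from separate mice, and their number limits precision.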

Additional observations from a re-analysis of the deposited data

How the results depend on the processing

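Counts of genes past the adjusted threshold were 0 for all genes, for the 8 p53 targets and for the related p53 genes under every alternative run. These were the mouse as a replicate block, arrays centred on their medians, array weights, genes above the median level, the mean over probe sets, a trended robust prior, and leaving out each array or mouse. The block with centring, and the test between mice, were chosen after seeing the data. The replicate block changed no call, with 0 genes called, and its smallest adjusted p over all genes was 0.841. The median difference of the p53 targets was -0.01. It was -0.12 with arrays centred, with or without the block, and -0.052 among genes above the median level, where Zmat3 dropped out. Leaving out single arrays or mice moved it between -0.088 and 0.10. Centring moved the median over all genes from 0.02 to -0.09. It turned the differences of Mdm2 to -0.057 and of Eda2r to -0.075, with or without the block. When single arrays or mice were left out, Cdkn1a ranged from -1.44 to 0.19, Mdm2 from -0.10 to 0.18 and Eda2r from -0.036 to 0.092. Ccng1 ranged from 0.24 to 0.88, Phlda3 from -0.44 to -0.03, Sesn2 from -0.24 to -0.08, Bbc3 from -0.08 to -0.02 and Zmat3 from 0.02 to 0.18. The cause of these shifts was not tested. The count between mice stayed at 0 under all its alternatives.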

Other observations

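Besides Cdkn1a, 6 other inhibitors of cyclin-dependent kinases were measured. Each averaged lower in metastases, with a median of -0.05, and none passed the limma threshold or had an unadjusted p under 0.05. Cdkn2a and Cdkn2b, the latter between 3.78 and 3.86, lay below the median of the negative controls on all arrays. Cdkn2d, between 4.23 and 4.84, lay near or below it, so the direction of these genes has little signal behind it. Cdkn2c, which encodes p18, differed by -0.29 (SE 0.15), Cdkn1c, which encodes p57, by -0.19 (SE 0.08), and Cdkn1b, which encodes p27, by -0.07 (SE 0.19). Cdkn2c stood lower in the metastasis of all 3 mice, 1 of the 6, where 8.64% of all genes did.

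Genes of the Atf4 stress response, which share Sesn2 as a target with p53, averaged lower in metastases for 7 of 10, with a median of -0.33, which was -0.48 within C1M3 and -0.05 within each of the other mice, and no gene past the limma threshold or at an unadjusted p under 0.05. Ddit3, which encodes the death-promoting factor Chop, stood at 13.26 in the primary tumour of C1M3 and between 10.52 and 11.47 in the other 5. Ppp1r15a, which encodes Gadd34, a phosphatase subunit that restores translation, differed by -0.47 (SE 0.24). It stood lower in the metastasis of all 3 mice, as did 3 of the 10 genes, where 8.64% of all genes did. Its groups did not overlap, 1 of the 10, where 2.84% of all genes were apart in this direction. Nupr1, a stress-induced chromatin protein gene, differed by 0.48 (SE 0.33) and was lowest, at 7.22, in the primary tumour of C1M3.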
